A study of Mus musculus with 8 samples.

Results

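The amino acid transporter genes described here were all genes of the mouse count table whose symbol begins with Slc1a, Slc3a, Slc7a, Slc36a, Slc38a or Slc43a and a digit. The rule matched 45 of 27998 genes. Of these, 3 are genes named for lying opposite a transporter gene (Slc36a1os, Slc36a3os and Slc7a6os) and are not transporters themselves, which leaves 42 transporter genes. A total of 33 transporter genes had at least 20 unique molecular identifiers (UMIs, each of which marks 1 captured transcript) in the mammary epithelial clusters C1 to C15. The other 9 were only counted. Slc1a7 and Slc7a15 had 0 UMIs, and Slc7a9, Slc7a10, Slc7a12, Slc7a13, Slc7a14, Slc36a3 and Slc38a8 had between 1 and 12.

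Amino acids cross the plasma membrane through carriers with different partners and driving forces. Slc3a2 (CD98, 4F2hc) and Slc3a1 (rBAT) are heavy chains, single-pass glycoproteins that carry a light chain to the membrane, and the light chain does the transport. Slc7a5 (LAT1) and Slc7a8 (LAT2) exchange large neutral amino acids, Slc7a6 and Slc7a7 exchange cationic for neutral amino acids, and Slc7a11 (xCT) takes up cystine in exchange for glutamate. Slc7a1, Slc7a2 and Slc7a3 (CAT1 to CAT3) carry arginine and lysine without a heavy chain. Slc1a1, Slc1a2 and Slc1a3 take up glutamate with sodium, while Slc1a4 and Slc1a5 (ASCT1 and ASCT2) exchange small neutral amino acids and glutamine. The Slc38 genes (SNATs) carry glutamine, alanine and other neutral amino acids with sodium, the Slc36 genes (PATs) carry small amino acids with protons, and Slc43a1 and Slc43a2 (LAT3 and LAT4) let large neutral amino acids pass down their gradient. In lactation the secretory epithelium draws amino acids from the blood to make milk protein, and basal myoepithelial cells, which contract to eject milk, lie between it and the blood supply.

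Cells came from the mammary glands of 8 C57BL/6N mice, 2 at each of 4 stages: nulliparous at an age of 8 weeks (NP), pregnant at gestation day 14.5 (G), lactating for 6 days (L) and post involution, 11 days past a natural weaning (PI). Each library held the cells of 1 mouse, from glands without their lymph nodes, sorted as EpCAM-positive and free of CD31, CD45 and Ter119. According to the methods of the study, NP_1, NP_2 and PI_2 were in oestrus and PI_1 in dioestrus, so the PI mice also differ from each other in cycle stage. Clusters are those of the deposited annotation, grouped here into classes after the putative identities given by the study. The luminal classes are hormone-sensing progenitors (Hsp, clusters C1 and C2), differentiated hormone-sensing cells (Hsd, C3 to C5), luminal progenitors (Lp, C6 and C7), alveolar progenitors (Avp, C10 and C11) and differentiated alveolar cells (Avd, C8 and C9). The others are basal cells (Bsl, C12 to C14) and the Procr-positive cluster C15 of lactation (Prc). The study lists C14, the myoepithelial cluster of lactation, apart from the basal clusters C12 and C13, and it was pooled with them here.

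Of 25806 barcodes, 25009 passed the deposited quality flags and 23183 lay in C1 to C15. Libraries held 13785920 to 35711533 UMIs, with a median of 3770 to 9624 UMIs per cell. A total of 392 barcode sequences occurred in more than 1 library, and 0 of the cells used carried one. Levels are UMI shares scaled to CPM, the usual depth-normalised unit, over all cells of a cluster or class summed within a mouse. The chemistry reads only the 3′ end, so that 1 transcript counts once whatever its length. Levels of different genes are set side by side on this scale as shares of captured transcripts. How fully the transcripts of each gene were captured was not measured. Clusters had been called from the same transcripts, and differences between clusters are therefore given as a description without a test. A lower CPM in a sum cannot be told apart from fewer expressing cells with the same content. Changes between stages are log2 fold changes fitted by edgeR's quasi-likelihood test on the sums of 2 against 2 mice, with standard errors (SE) and p-values adjusted across every gene in the fit by the Benjamini-Hochberg method, at a threshold of 0.05. C9 held 42 and 47 cells of the L mice, C5 held 20 and 41 cells of the G mice, and the basal cells of the PI mice numbered 28 and 59, so that values in these sums rest on the fewest UMIs.

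Among the heavy chains, Slc3a2 was the most abundant transporter transcript in most clusters (chromosome 19, 8706882 to 8723369, minus strand, GRCm38). Cluster means here and below are over the 2 mice of the stage that gave most cells of the cluster. The mean of Slc3a2 ranged from 104 ± 44.2 CPM (SD) in gestation hormone-sensing cells (C5) to 586 ± 91.4 CPM in post-involution luminal progenitors (C7). Next came lactation myoepithelium (C14) at 489 ± 51.0 CPM and nulliparous basal cells (C12) at 412 ± 56.9 CPM. The 27 and 53 cells of C12 from PI_1 and PI_2, outside these means, had 636 and 754 CPM. The mice of C7 (650 and 521 CPM) and of C14 (453 and 525 CPM) overlapped, so these neighbours in the order did not differ beyond their spread. Slc3a1, the heavy chain known from kidney and intestine, had 22 UMIs in all. Slc3a2 exceeded the summed light chains (Slc7a5, Slc7a6, Slc7a7, Slc7a8, Slc7a10 and Slc7a11) in every cluster mean, by a factor of 1.65 ± 0.11 in C12, 2.72 ± 0.22 in gestation basal cells (C13) and 8.41 ± 0.61 in C14, while in C5 the ratio was 1.00 in G_1 and 2.92 in G_2.

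Slc7a5 was the leading light chain in 12 of the 15 clusters in both mice, and took 86.3% and 83.2% of light chain UMIs in nulliparous luminal progenitors (C6). Its level was highest in C12 (153 CPM), then in C6 (82.8 CPM), C13 (77.5 CPM) and C7 (77.3 CPM), and was 4.20 and 4.44 CPM in the mice of post-involution differentiated hormone-sensing cells (C3). In C3 the leading light chain was Slc7a7, with 61.7% and 56.6% of light chain UMIs. Slc7a11, the cystine carrier, followed the basal lineage, with 65.0 CPM in NP (C12), 23.6 CPM in G (C13) and 13.8 CPM in L (C14), against at most 13.4 CPM in any mouse of the luminal clusters.

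The cationic transporters differed in the clusters where they were highest. Slc7a2 (chromosome 8, 40862396 to 40922308, plus strand) was highest in hormone-sensing cells of NP and PI. NP_1 and NP_2 had 188 and 138 CPM in progenitors (C2) and 223 and 184 CPM in differentiated cells (C4). PI_1 and PI_2 had 189 and 204 CPM in C1 and 290 and 289 CPM in C3. In every sum of the other luminal lineages it was low, with 15.4 and 10.8 CPM in luminal progenitors of NP (C6), 8.12 and 13.2 CPM in those of PI (C7) and at most 3.5 CPM in any alveolar cluster (C8 to C11). The hormone-sensing cells of gestation (C5) were between these, with 24.3 and 69.7 CPM on 3 and 18 UMIs. Nulliparous basal cells (C12) also held Slc7a2, within the range of the C5 mice, as given below. Slc7a1 was higher in luminal progenitors, with means of 85.0 CPM in NP (C6) and 57.0 CPM in PI (C7), than in differentiated hormone-sensing cells. These had 34.5 CPM (C4) and 16.1 CPM (C3). Hormone-sensing progenitors of NP (C2) were near the level of C7, so Slc7a1 did not set the whole hormone-sensing lineage apart. The lowest mean of Slc7a1 was in lactation alveolar cells (C9, 5.99 CPM) and the highest in C12 (113 CPM). Slc7a4, an orphan relative for which no amino acid transport is firmly established, reached 23.1 CPM in lactation alveolar cells (C9), and Slc7a3 did not exceed a mean of 3.11 CPM.

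**Figure D1:**
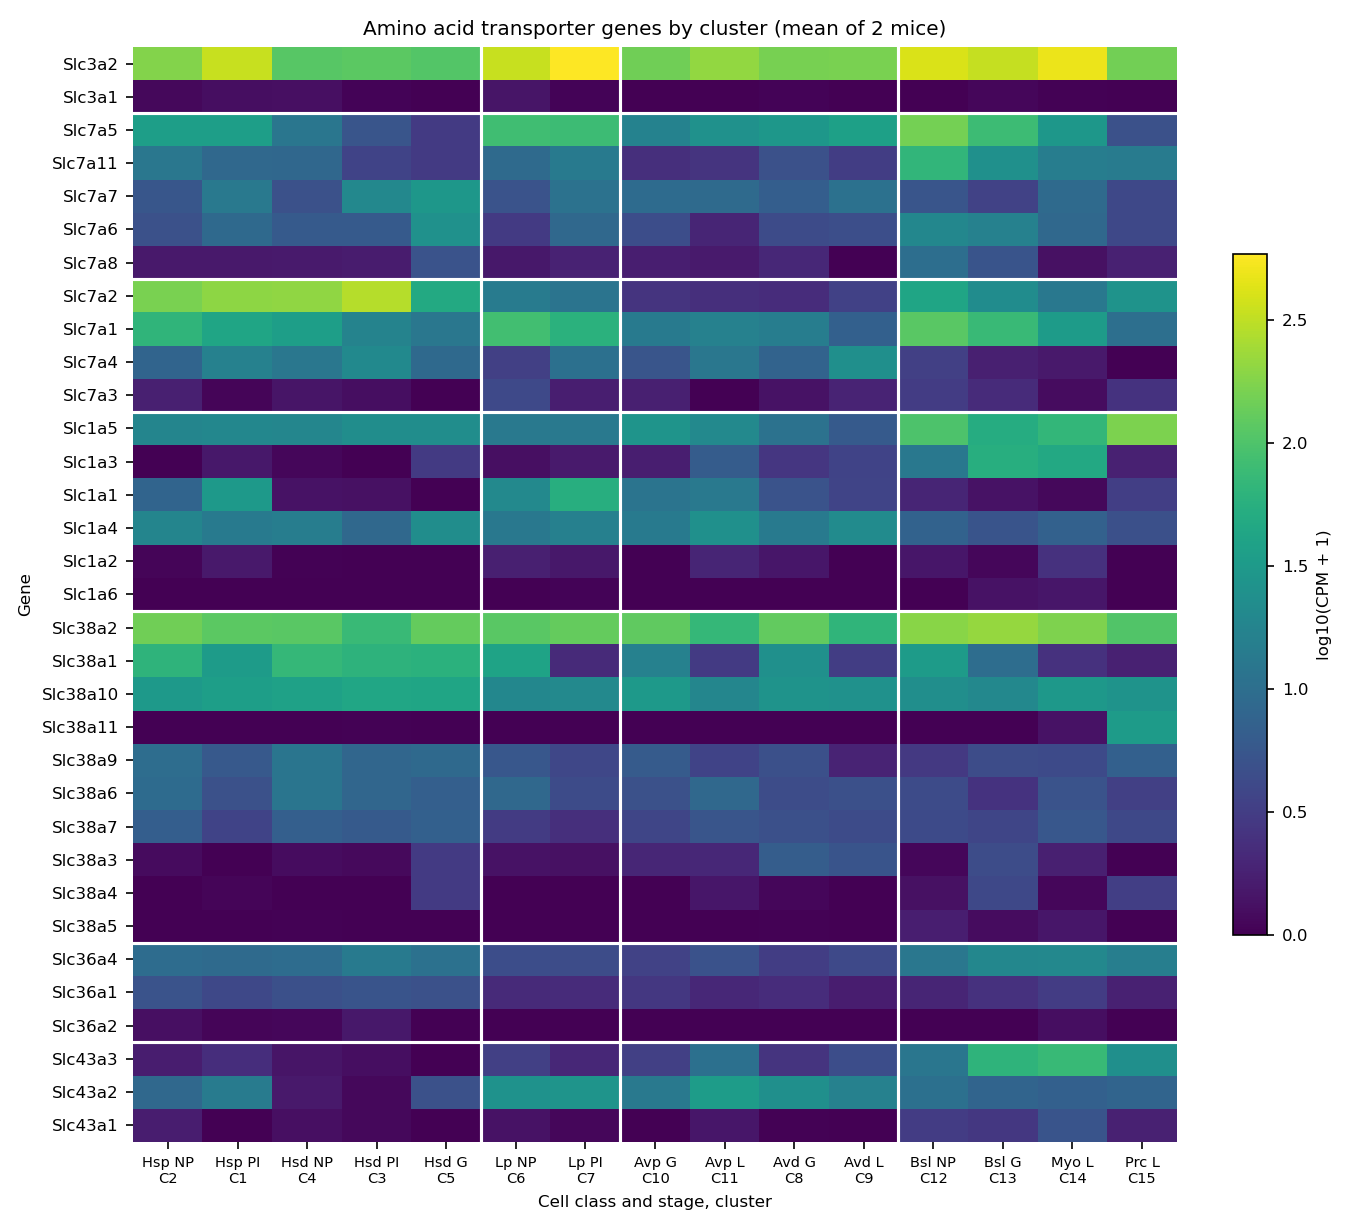
Mean level of the 33 transporter genes with at least 20 UMIs in each cluster, over the 2 mice of the stage named under it, as log10(CPM + 1). Rows are grouped by role and columns by lineage (hormone-sensing, luminal progenitor, alveolar, basal with C15). Slc3a2 and Slc38a2 are high across all columns, Slc7a2 in hormone-sensing cells, Slc1a3 and Slc43a3 in basal cells of G and L, and Slc38a11 in C15.

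Among the glutamate and neutral exchangers, Slc1a5 was highest in C15 (146 and 187 CPM in L_1 and L_2) and in C12 (102 and 93.8 CPM in NP_1 and NP_2), and lay between 5.0 and 26.3 CPM in the luminal clusters. Slc1a1 (EAAC1) was a transcript of progenitors, with a mean of 52.9 CPM in PI luminal progenitors (C7), 29.8 CPM in PI hormone-sensing progenitors (C1) and 19.3 CPM in NP luminal progenitors (C6), and it was near 0 in differentiated hormone-sensing cells (at most 0.474 CPM in any mouse of C3 or C4). Within C1 to C15, Slc1a3 (GLAST) was nearly limited to basal cells, with 53.3 CPM in gestation (C13), 45.6 CPM in lactation (C14) and 11.9 CPM in nulliparous mice (C12). It was at most 5.4 CPM in the other clusters of C1 to C15. The non-epithelial cluster C18, whose cells hold fibroblast markers, had 40.8 and 6.65 CPM in G_1 and G_2 and 7.1 and 4.33 CPM in L_1 and L_2. Slc43a3 is known as a nucleobase and fatty acid transporter rather than an amino acid carrier. Within C1 to C15 it was also highest in basal cells of lactation (C14, 72.8 CPM) and gestation (C13, 62.6 CPM). It had 22.8 CPM in C15, 11.2 CPM in nulliparous basal cells (C12) and 13 and 5.88 CPM in alveolar progenitors of lactation (C11). Slc43a2 was instead higher in luminal progenitors and alveolar cells, with 20.2 and 29.9 CPM in the mice of C6, a mean of 25.8 CPM in C7 and one of 33.0 CPM in lactation alveolar progenitors (C11), and 0.2 CPM in C3.

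Of the Slc38 genes, Slc38a2 (SNAT2) was present throughout, from 64.0 CPM in C9 to 215 CPM in C13, and Slc38a10 lay between 17.9 and 42.4 CPM in all 15 clusters. Slc38a11 was found almost only in C15, with 24 and 6 UMIs (37.3 and 26.7 CPM) in L_1 and L_2. C14 of the same mice had 10 and 4 UMIs (0.5 and 0.2 CPM), and all other clusters of C1 to C15 together had 1 UMI. C15 was also the cluster with the highest level of pericyte markers, whose summed level was 6022 and 5299 CPM there against at most 120 CPM in any other class of any mouse. The remaining transporter genes with at least 20 UMIs (Slc1a6, Slc36a1, Slc36a2, Slc38a5, Slc38a7 and Slc38a9) did not exceed a mean of 10.9 CPM in any cluster, with Slc38a9, a lysosomal sensor of arginine, the highest of them in C4.

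Slc38a1 (SNAT1, chromosome 15, 96571418 to 96642913, minus strand), a sodium-coupled glutamine carrier, separated the stages within 1 lineage. In luminal progenitors it had 45.0 and 33.1 CPM in NP_1 and NP_2 and 1.06 and 1.37 CPM in PI_1 and PI_2, or 149 and 80 UMIs against 8 and 11. Hormone-sensing progenitors had 65.8 and 59.5 CPM in NP and 34.3 and 30.7 CPM in PI, and differentiated hormone-sensing cells had 72.0 and 65.4 CPM in NP, 64.9 and 50.3 CPM in G and 58.9 and 62.8 CPM in PI. Alveolar cells of gestation lay in between, at 17.6 and 13.7 CPM in progenitors and 20.8 and 26.2 CPM in differentiated cells, and those of lactation were at 2.66 and 1.15 CPM and at 1.73 and 2.68 CPM. Basal cells held 32.0 and 32.3 CPM in NP, 9.31 and 7.85 CPM in G, 0.62 and 2.29 CPM in L and 8.74 and 22.4 CPM in PI, the last of these on 1 and 7 UMIs. The NP and PI mice did not overlap in luminal progenitors, and the G and L mice did not overlap in any of the 3 classes.

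**Figure D2:**
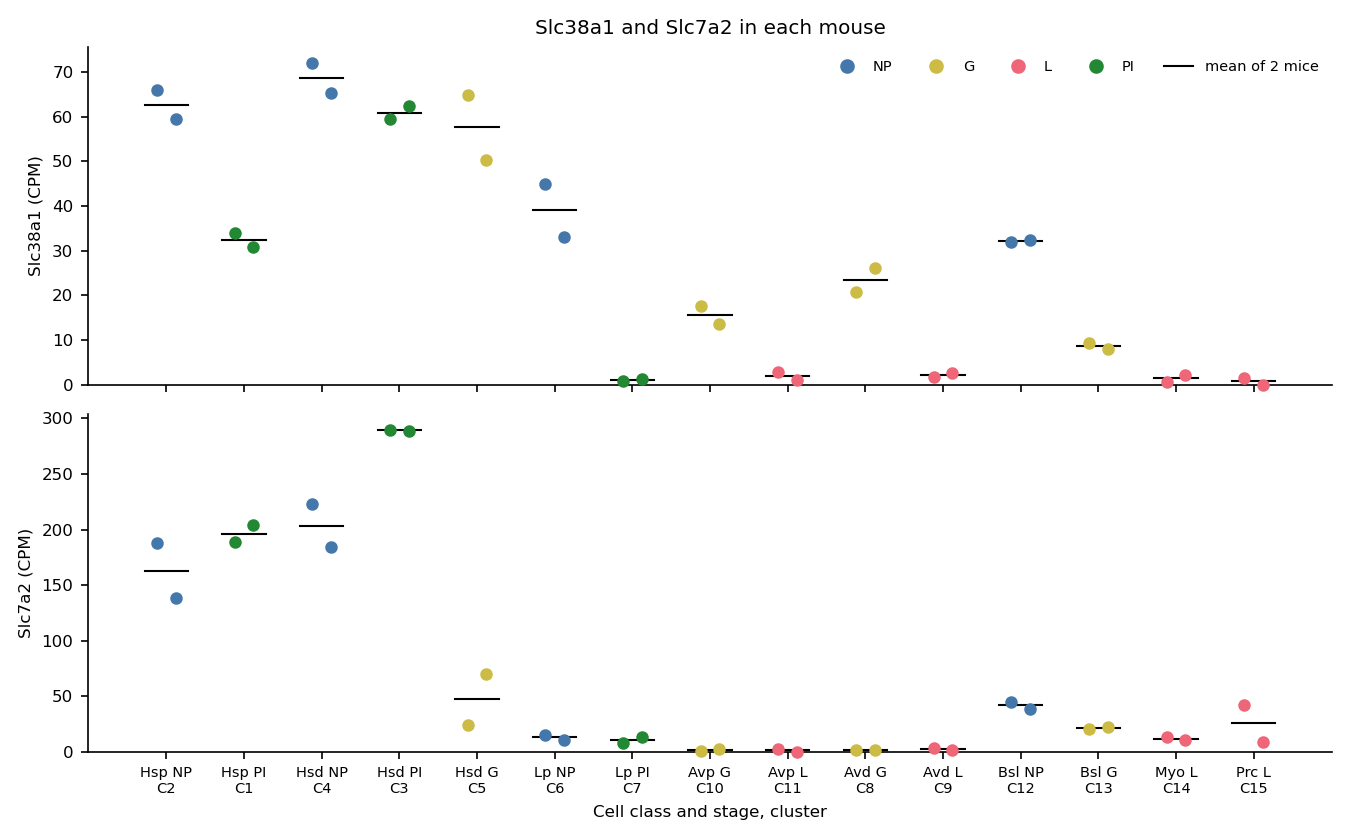
Level of Slc38a1 (top) and Slc7a2 (bottom) in CPM in each of the 2 mice (points, coloured by stage) of every cluster, with the mean of the 2 mice as a line. Slc38a1 is between 50.3 and 72.0 CPM in Hsd clusters of 3 stages and at most 2.8 CPM in C7, C9, C11, C14 and C15. Slc7a2 is at 138 CPM or more in C1 to C4 and below 70 CPM in all other clusters.

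The comparison of PI with NP mice asks what remains changed in the gland after a cycle of pregnancy, lactation and involution. In luminal progenitors, 10 of the 20 transporter genes tested passed the test, 6 higher and 4 lower in PI, where 26.9% of all 10766 genes tested were called (13.9% higher, 13% lower). The largest difference was the drop of Slc38a1, which fell by 4.90 on the log2 scale (SE 0.28, adjusted p = 1.07e-06). Slc3a2 rose from 372 and 319 CPM in NP to 643 and 520 CPM in PI (log2 fold change 0.83, SE 0.14, adjusted p = 0.00165). Slc1a1 rose from 21.1 and 17.4 CPM to 64.5 and 40.1 CPM (1.51, SE 0.24, adjusted p = 0.000934), and Slc7a4 from 3.02 and 1.66 CPM to 8.75 and 10.2 CPM (2.04, SE 0.37, adjusted p = 0.00217). In each of these genes both PI mice lay outside the range of the NP mice, and the calls of these 4 held in all alternatives in which the gene was tested.

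Slc7a6 rose from 2.72 and 1.24 CPM to 9.41 and 5.73 CPM (log2 fold change 1.93, adjusted p = 0.01), and without PI_1 its adjusted p was 0.0648, while without NP_1 its fold change was 2.64. Slc7a7 rose from 3.32 and 4.97 CPM to 9.81 and 10.1 CPM (1.38, adjusted p = 0.00852), with 0.0827 without NP_1. Slc7a11 rose from 7.54 and 8.69 CPM to 13.4 and 11.8 CPM (0.73, adjusted p = 0.0487). Slc7a1 fell from 99.6 and 70.4 CPM to 54.5 and 58.6 CPM (-0.51, adjusted p = 0.0357). Slc38a6 fell from 7.54 and 7.87 CPM to 3.18 and 3.24 CPM (-1.17, adjusted p = 0.0214), and Slc7a3 from 11 and 7 UMIs to 7 and 4 UMIs in larger sums (-2.03, adjusted p = 0.0174). The calls of Slc7a11, Slc38a6 and Slc7a3 were lost with each of the 4 mice left out in turn, and that of Slc7a1 without PI_1 (0.0757) and without NP_1 (0.411). Slc7a5 was at 89.6 and 76.2 CPM in NP and 77.8 and 75.5 CPM in PI (-0.04, SE 0.13, adjusted p = 0.87), so that the rise of the heavy chain stood beside an estimate near 0 for its leading light chain.

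In hormone-sensing progenitors, 6 of 20 transporter genes tested were called (4 higher, 2 lower), against 16.6% of 10692 genes (9.58% higher, 7.05% lower). Slc1a1 rose from 6.76 and 6.93 CPM to 37.4 and 21.4 CPM (log2 fold change 2.0, SE 0.28, adjusted p = 0.000536). Slc3a2 rose from 193 and 167 CPM to 364 and 311 CPM (0.89, SE 0.14, adjusted p = 0.00103), with an adjusted p of 0.0577 without NP_2. Slc7a7 rose from 5.02 and 4.05 CPM to 9.23 and 15.5 CPM (1.51, adjusted p = 0.00747), and Slc7a4 from 7.92 and 5.49 CPM to 16.4 and 15.1 CPM (1.17, adjusted p = 0.00807). Slc38a1 fell by 0.97 on the log2 scale (SE 0.15, adjusted p = 0.00094), and Slc7a1 fell from 67.2 and 59.2 CPM to 35.4 and 46.8 CPM (-0.59, adjusted p = 0.0288). The PI and NP mice did not overlap in any of the 6 genes. The call of Slc7a7 was lost without PI_2 (0.182) or NP_1 (0.0752), and that of Slc7a1 without PI_1 (0.0766) or NP_1 (0.217). Without NP_2 only Slc1a1 and Slc38a1 were called, and these were also the 2 genes whose calls held in every alternative.

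In differentiated hormone-sensing cells, 6 of 18 transporter genes tested were called (1 higher, 5 lower), against 14.3% of 11994 genes (7.64% higher, 6.65% lower). Slc7a5 fell from 12.8 and 9.83 CPM to 4.66 and 4.73 CPM (log2 fold change -1.29, SE 0.23, adjusted p = 0.0036), Slc7a11 from 7.99 and 6.66 CPM to 2.19 and 3.43 CPM (-1.27, SE 0.28, adjusted p = 0.012) and Slc7a1 from 39.6 and 29.1 CPM to 16.7 and 16.2 CPM (-1.11, SE 0.17, adjusted p = 0.00184). Slc1a4 fell from 14 and 14.1 CPM to 6.57 and 8.53 CPM (-0.87, adjusted p = 0.0166), and Slc38a2 from 111 and 114 CPM to 89.0 and 61.0 CPM (-0.68, adjusted p = 0.022). Slc7a7 was the gene that rose, from 4.86 and 3.09 CPM to 20.5 and 15.4 CPM (2.09, SE 0.24, adjusted p = 0.000227). The mice of the 2 stages did not overlap in these genes. Slc7a2, the leading transporter of these cells, had 223 and 184 CPM in NP and 291 and 287 CPM in PI (0.45, SE 0.16, adjusted p = 0.0777) and did not pass the test. The calls of Slc7a5, Slc7a1 and Slc7a7 held in every alternative in which they were tested. That of Slc7a11 was lost without NP_1 (0.0806), that of Slc1a4 without NP_1 (0.0545), without NP_2 (0.0795) and with DESeq2 (0.0619), and that of Slc38a2 without PI_2 (0.0803) or NP_2 (0.0837). Without PI_1, the mouse in dioestrus, 11 transporter genes were called (5 higher, 6 lower).

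**Figure D3:**
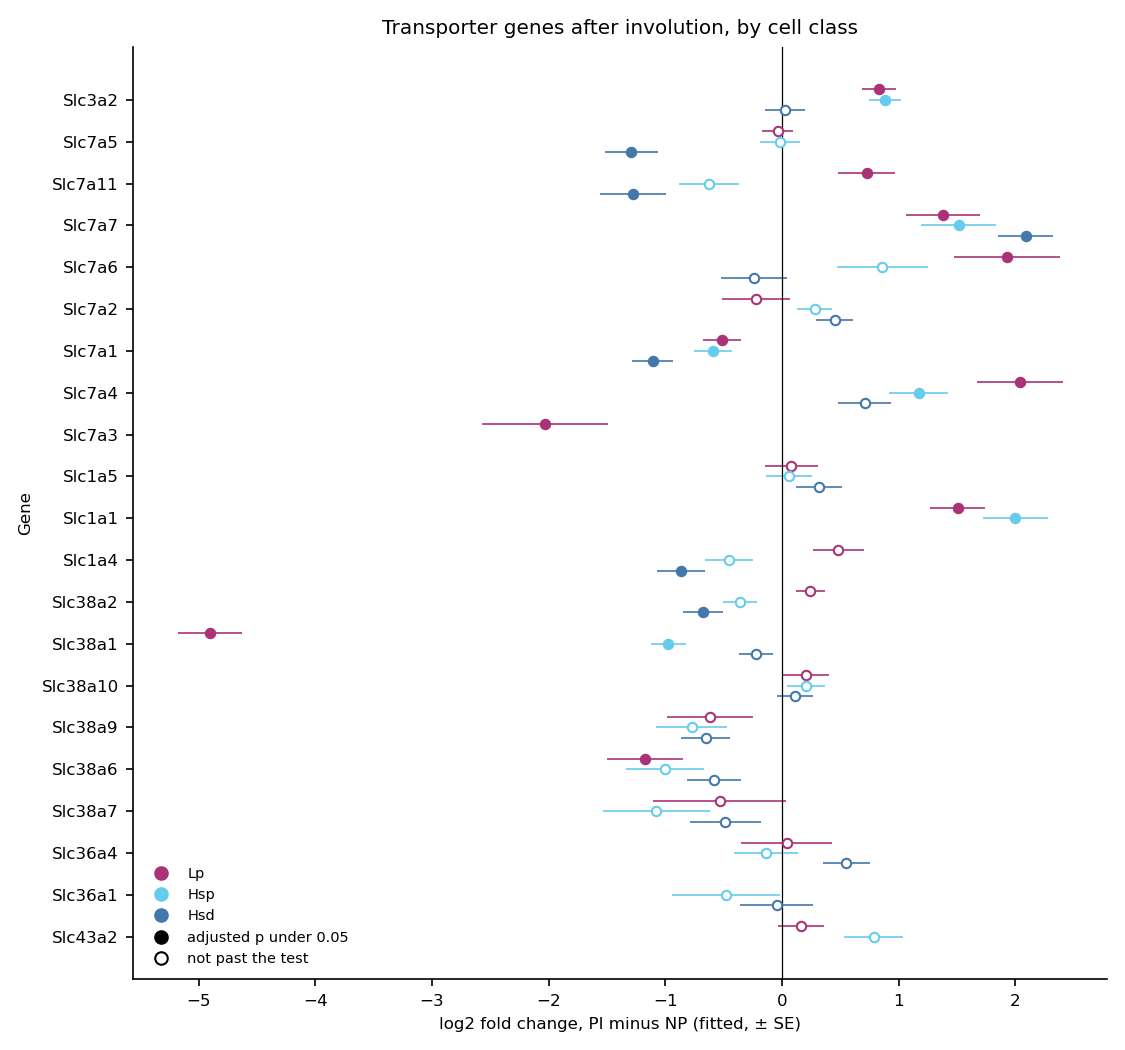
Fitted log2 fold change (PI minus NP, horizontal axis, with SE bars) of each tested transporter gene in luminal progenitors (Lp), hormone-sensing progenitors (Hsp) and differentiated hormone-sensing cells (Hsd). Filled points have an adjusted p under 0.05. Slc38a1 lies at -4.90 in Lp and -0.97 in Hsp, Slc3a2 is above 0 in Lp (0.83) and Hsp (0.89), and Slc7a7 is above 0 and filled in all 3 classes.

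A fit with the mouse as a term compared the 2 changes, that of luminal progenitors and that of differentiated hormone-sensing cells, with each other. The difference was called for 10 of 21 transporter genes, where 20.2% of 11743 genes were called (10.4% toward luminal progenitors, 9.84% toward hormone-sensing cells). Luminal progenitors changed further upward, or less downward, for Slc7a6 (difference 2.03 on the log2 scale, SE 0.45, adjusted p = 0.00308), Slc7a11 (1.95, SE 0.35, adjusted p = 0.000422), Slc7a4, Slc1a4, Slc7a5, Slc38a2, Slc3a2 and Slc7a1. They changed further downward for Slc38a1 (-4.70, SE 0.27, adjusted p = 2.67e-10) and Slc7a2 (-0.67, SE 0.23, adjusted p = 0.0475), the latter call being lost without NP_1, NP_2 or PI_1. The calls of Slc7a1 (0.0773 without NP_1, 0.0889 without NP_2, 0.0846 without PI_2), Slc7a4 (0.164 without NP_1, 0.0563 without NP_2) and Slc7a6 (0.0558 without NP_2, and a difference of 2.78 without NP_1) were also lost without 1 mouse, and the difference of Slc7a11 was 2.67 without PI_2. Slc7a11 was the gene that had passed the test in opposite directions in the 2 classes. The rise of Slc7a7 did not differ between them beyond the error (-0.68, SE 0.44, adjusted p = 0.31).

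Milk protein genes, which mark cells of secretory differentiation, were higher in PI in both luminal progenitors (7 of 7 tested, against 13.9% of all genes) and hormone-sensing progenitors (6 of 6, against 9.58%). The alveolar markers (Csn2, Csn1s1, Csn3, Lalba, Wap and Glycam1) are themselves among these milk genes, so their sum is not a separate sign. It went from 764 and 1441 CPM in NP to 12768 and 13692 CPM in PI in luminal progenitors. In hormone-sensing progenitors it went from 196 and 335 CPM to 6366 and 6878 CPM. In differentiated hormone-sensing cells it went from 14.1 and 11.0 CPM to 69.3 and 79.7 CPM. The part of these transcripts in the transporter results was not tested. Genes of amino acid use moved in the same mice. In luminal progenitors, 7 of 15 tested rose and 0 fell, where 13.9% of all genes were called higher and 13% lower, among them Arg1 (log2 fold change 3.80), Arg2 (2.49), which both cleave arginine, the aspartate aminotransferase Got1 (2.83) and Bckdha (1.61), a subunit of the branched-chain ketoacid dehydrogenase. Got1 and Arg1 also rose in hormone-sensing progenitors (1.48 and 1.85) and differentiated hormone-sensing cells (1.80 and 2.61).

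Basal cells were compared across all 4 stages. From NP to G, 11 of 21 transporter genes tested were called (4 higher, 7 lower), in a comparison in which 46.1% of 11086 genes were called (24.3% higher, 21.9% lower), so this share is near that of all genes. The genes called lower were Slc7a5, Slc7a8 and Slc7a11 of the light chains, Slc7a1 and Slc7a2 of the cationic carriers, Slc1a5 and Slc38a1, while Slc7a6 (21.2 and 15.5 CPM in NP, 15.3 and 16.2 CPM in G) and Slc7a7 did not pass the test. Slc7a5 fell from 154 and 152 CPM to 66.4 and 87.5 CPM (log2 fold change -0.90, SE 0.14, adjusted p = 0.000102), Slc7a11 from 73.3 and 56.4 CPM to 23.9 and 22.7 CPM (-1.41, SE 0.17, adjusted p = 8.38e-06) and Slc1a5 from 102 and 93.3 CPM to 53.1 and 48.7 CPM (-0.86, SE 0.14, adjusted p = 0.000118). Slc38a1 fell by 1.81 on the log2 scale (SE 0.22, adjusted p = 8.44e-06), Slc7a2 from 44.9 and 38.2 CPM to 20.4 and 23.3 CPM (-0.85, adjusted p = 0.00121, 0.109 without the cells with most UMIs) and Slc7a1 from 119 and 106 CPM to 64.9 and 82.1 CPM (-0.53, adjusted p = 0.00643, 0.0748 without NP_1). Slc7a8 was at 8.23 and 9.56 CPM in NP and 2.77 and 5.61 CPM in G (-0.95, adjusted p = 0.0499), a call lost without G_1 (0.302), without NP_1 (0.0763) or without NP_2 (0.125).

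The glutamate carrier Slc1a3 rose from 12.5 and 11.4 CPM in NP to 48.3 and 57.0 CPM in G (log2 fold change 2.22, SE 0.20, adjusted p = 2.93e-07). Slc43a3 rose from 10.6 and 11.8 CPM to 71.2 and 53.2 CPM (2.58, SE 0.21, adjusted p = 1.51e-07). Slc36a4 rose from 10.8 and 12.3 CPM to 18.6 and 18 CPM (0.77, adjusted p = 0.0146), with 0.178 without NP_1. Slc38a3 had 1 and 0 UMIs in NP and 10 and 19 in G, a ratio of CPM of 22.2 with an exact 95% interval of 3.68 to 906 for counting error. Markers of other cell types moved in the same sums. The 5 hormone-sensing markers summed to 286 and 312 CPM in NP and 19.1 and 15.9 CPM in G, and the 4 luminal markers to 5587 and 3688 CPM and to 1243 and 1395 CPM, beside the falls of Slc7a2 and Slc38a1, which were both highest in hormone-sensing clusters. The 6 fibroblast markers summed to 177 and 265 CPM in NP and 901 and 672 CPM in G, beside the rises. The part of these transcripts in the results was not tested.

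From G to L, 17 of 26 transporter genes tested were called in basal cells (7 higher, 10 lower), where 48.3% of 12720 genes were called (24.2% higher, 24% lower). This comparison shares its G mice with the one before. Slc7a5 fell from 66.4 and 87.5 CPM to 29.1 and 26.8 CPM (log2 fold change -1.35, SE 0.16, adjusted p = 0.000307), Slc7a1 from 64.9 and 82.1 CPM to 26.3 and 38.1 CPM (-1.08, SE 0.21, adjusted p = 0.00293) and Slc7a6 from 15.3 and 16.2 CPM to 6.91 and 8.36 CPM (-0.93, adjusted p = 0.00685). Slc7a8 (LAT2) fell from 11 and 25 UMIs to 4 and 8 UMIs in sums with more UMIs (-3.56, SE 0.58, adjusted p = 0.00139, with a fold change from -4.27 without L_2 to -2.95 without G_2). Slc38a1 fell by 2.48 on the log2 scale (SE 0.52, adjusted p = 0.00482, with a fold change of -1.76 without L_1 and -3.65 without L_2). Slc7a2 (-0.77), Slc7a11 (-0.64), Slc38a3 (-2.04) and Slc7a3 (-2.02) were also called lower, and each of these calls was lost without 1 mouse, with an adjusted p of 0.0501 for Slc7a2 and 0.117 for Slc38a3 without G_2, of 0.142 without L_1 and 0.0564 without G_1 for Slc7a11, and of 0.148 for Slc7a3 without G_1. Slc38a4 had 9 and 16 UMIs in G against 1 and 3 in L, a CPM 28 times higher in G with an interval of 9.66 to 111.

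Against this direction, Slc3a2 rose from 319 and 350 CPM in G to 453 and 525 CPM in L (log2 fold change 0.66, SE 0.12, adjusted p = 0.00282), so that the heavy chain and its light chains Slc7a5, Slc7a6 and Slc7a8 went opposite ways in the same cells. Slc7a7 was the light chain that rose, from 2.01 and 3.14 CPM to 8.42 and 7.64 CPM (1.74, SE 0.31, adjusted p = 0.002). Slc38a10 (0.72), Slc38a6 (1.43), Slc43a1 (1.29) and Slc1a5 (0.52) were higher too, and Slc1a2, a glutamate carrier best known from astrocytes, went from 1 and 0 UMIs to 28 and 28, a CPM ratio of 12.5 with an interval of 2.15 to 503. Slc1a3 (37.0 and 54.3 CPM in L, log2 fold change -0.10, SE 0.20) and Slc43a3 (65.8 and 79.9 CPM in L, 0.34, SE 0.18) overlapped between G and L and did not pass the test. The calls of Slc38a6 (0.0509), Slc43a1 (0.114), Slc1a5 (0.095) and Slc1a2 (0.0878) were lost without G_2, that of Slc43a1 also without L_1 (0.22) and G_1 (0.0641), and that of Slc1a5 without L_2 (0.13). In the same sums the 5 adipocyte markers were at 5.28 and 4.49 CPM in G, with 3 and 4 of them at 0, and 41.2 and 33.0 CPM in L, and the 5 pericyte markers at 25.9 and 38.4 CPM in G and 120 and 57.3 CPM in L. Their part in the results was not tested. Without G_2, 9 of the transporter genes were called (3 higher, 6 lower).

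**Figure D4:**
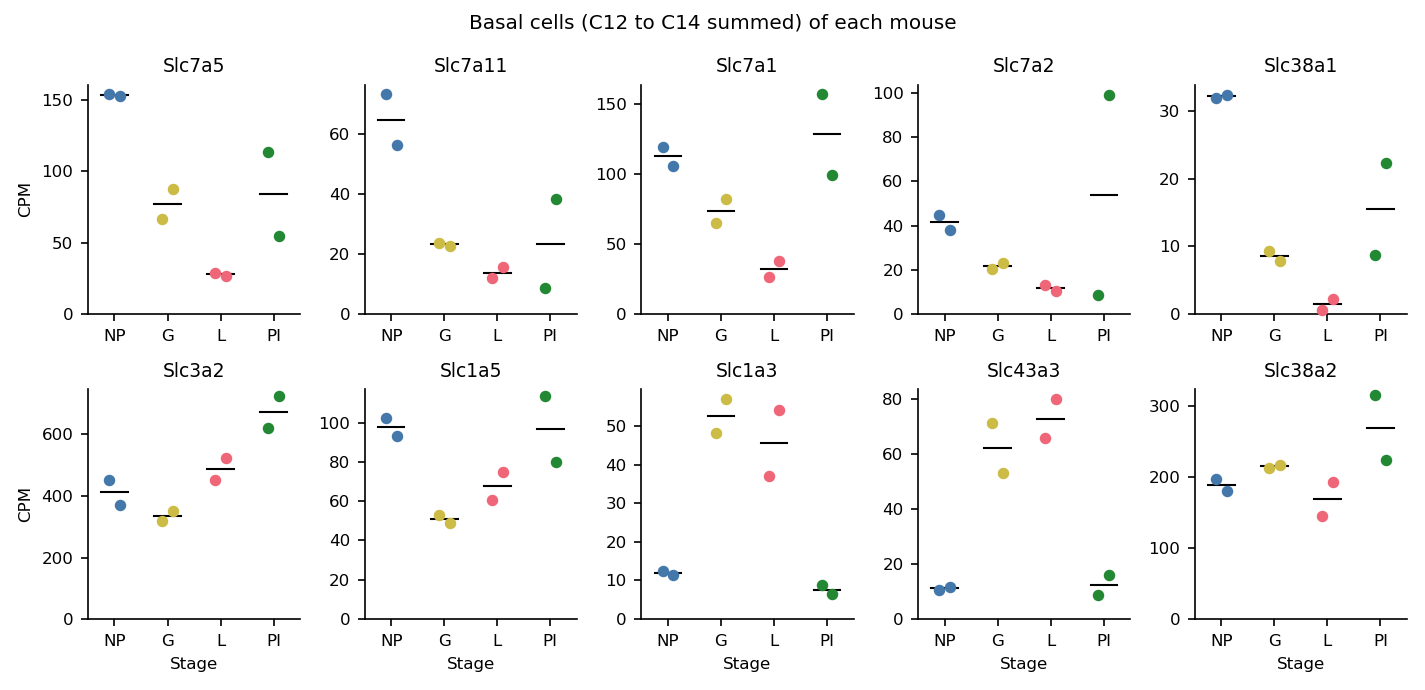
Level in CPM of 10 transporter genes in the basal cells of each mouse (points) at the 4 stages, with the mean of the 2 mice as a line and every vertical axis starting at 0. Slc7a5, Slc7a11, Slc7a1, Slc7a2 and Slc38a1 go down from NP to G to L, Slc1a3 and Slc43a3 are high in G and L, and Slc3a2 is higher in L than in G. The PI points rest on 28 and 59 cells.

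In PI basal cells, 2 of 15 transporter genes tested were called, 1 in each direction, against 7.43% of 8511 genes (4.74% higher, 2.69% lower). Slc3a2 was at 621 and 726 CPM in PI against 452 and 372 CPM in NP (log2 fold change 0.72, SE 0.18, adjusted p = 0.014), and Slc7a5 at 114 and 54.4 CPM against 154 and 152 CPM (-1.11, SE 0.28, adjusted p = 0.0132). Each call was lost without PI_2, without NP_1 and without NP_2, and with no filter on low counts the adjusted p was 0.308 for Slc3a2 and 0.252 for Slc7a5. The hormone-sensing markers summed to 793 CPM in PI_2, with 0 of 5 at 0, against 17.5 CPM in PI_1, with 3 of 5 at 0. Of the 5 immune markers 4 were at 0 in both PI mice, among them Ptprc, and the sum of 831 CPM in PI_1 was that of Cd74 alone. Slc7a2 followed the hormone-sensing markers, at 8.74 CPM (1 UMI) in PI_1 and 99.2 CPM in PI_2, and the part of these transcripts in the values was not tested.

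Several transporter genes belong, by textbook knowledge, to the amino acid response, in which the factor ATF4 binds a C/EBP-ATF composite element. They include genes that fell in basal cells, but also Slc3a2, which rose there from G to L. Slc38a2 is counted among them too and was not called in basal cells. The letters TGATGNAA, a core of that element, were searched on both strands (TTNCATCA) in the RefSeq promoter windows of GRCm38.p6, which reach from 250 bases before to 50 bases after a gene's start. They were found in 1304 of 32851 windows (3.97%), and in 4 of the 42 windows of transporter genes. Of the 42 transporter genes, 31 had a window, and those of Slc7a11, Slc7a7 and Slc1a4 held the letters. Stretches with a match that lies wholly before the start are shown, with the matched letters in capitals. These are from Slc7a11, which fell in basal cells, and Slc7a7, which rose there from G to L. The match of Slc1a4 did not lie wholly before the start and is not shown. The window of Slc7a11 held them in both orientations, beginning 66 and 47 bases before the start. Slc7a7 had them in the windows of 2 start sites, 141 and 243 bases before the respective start.
Slc7a11, chr3:50443623-50443709, minus strand: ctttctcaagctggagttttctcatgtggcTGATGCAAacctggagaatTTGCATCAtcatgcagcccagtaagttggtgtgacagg
Slc7a7, chr14:54418048-54418115, minus strand: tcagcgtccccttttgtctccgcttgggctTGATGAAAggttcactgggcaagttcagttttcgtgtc
Slc7a7, chr14:54417908-54417952, minus strand: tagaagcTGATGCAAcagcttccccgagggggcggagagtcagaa
A match is a run of letters and not a measured binding site. Slc7a5, Slc7a2, Slc38a1 and Slc1a5, which fell in basal cells from NP to G, were among the genes without a window. From G to L, 10 transporter genes were called lower in basal cells and 7 higher, the latter with Slc3a2 (log2 fold change 0.66). The part of the amino acid response in the transporter results was not tested.

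Other genes of the amino acid response were counted from a list of 21 that overlaps none of the transporters. In basal cells, 12 of 21 fell and 2 rose from NP to G, where 21.9% of all genes were called lower and 24.3% higher, with a median log2 fold change of -0.73 against 0.01 over all genes. From G to L 10 fell and 2 rose, where 24% of all genes were called lower and 24.2% higher, with a median of -0.44 against 0.04. The largest falls from NP to G were those of Nupr1 (-5.84), the glutathione-degrading enzyme Chac1 (-2.75), Mthfd2 of folate metabolism (-2.07) and the pseudokinase Trib3 (-1.99). From G to L they were those of Chac1 (-5.34), Mthfd2 (-2.94), and the proline and serine synthesis enzymes Pycr1 (-2.45) and Psat1 (-2.01). Cytosolic aminoacyl-tRNA synthetases, which load amino acids on tRNA, had, against the same shares of all genes, 14 of 20 lower and 0 higher from NP to G (median -0.96), among them Gars (-2.78), Nars (-1.66), Tars (-1.65) and Cars (-1.37), and 10 of 20 lower and 0 higher from G to L (median -0.43), led by Aars (-1.47). Of the genes induced by tissue dissociation, 12 of 16 were higher in G than in NP (24.3% of all genes) and 15 of 16 higher in L than in G (24.2% of all genes, median of the list 2.21), and their part in the transporter results was not tested.

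In the differentiated alveolar cells, which make the milk, the comparison of L with G depends on what the counts are scaled to. Milk protein genes took 44.8% and 41.7% of the UMIs of C9 in the L mice, against 9.67% and 5.74% of C8 in the G mice. After TMM normalization the median log2 fold change over all genes was -0.14, and with totals that leave out the milk protein genes it was -0.36. The median over the 24 transporter genes tested was 0.79, with 18 estimates above 0 and 6 below. The sums held 577508 and 744968 UMIs in L against 26454518 and 21959199 in G. Many of these estimates therefore rest on very few UMIs in L, and the median is no measure of a shift of the whole set. With genes at a mean of at least 0.1 UMI per cell, only 9 of them were tested. Of the 24, 5 were called (4 higher, 1 lower), against 18.7% of 11860 genes (9.54% higher, 9.17% lower), so the count itself is near the share of all genes.

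Slc7a5 was at 28.5 and 27.8 CPM in G and 36.4 and 37.6 CPM in L (log2 fold change 1.30, SE 0.23, adjusted p = 0.00205), and with the milk protein genes left out of the total at 31.5 and 29.5 CPM against 65.4 and 64.4 CPM. Slc7a4 rose from 7.03 and 6.01 CPM to 31.2 and 14.8 CPM (2.65, SE 0.41, adjusted p = 0.000629). Slc1a4 rose from 12.4 and 13.6 CPM to 17.3 and 24.2 CPM (1.61, SE 0.33, adjusted p = 0.00454, 0.0988 without L_2). For Slc3a2 the scales part: at 137 and 177 CPM in G and 166 and 153 CPM in L the mice overlapped, while without milk protein genes in the total they were at 152 and 188 CPM against 299 and 262 CPM, and the fitted change was 0.93 (SE 0.18, adjusted p = 0.00304). Slc38a1 had 550 and 575 UMIs in G and 1 and 2 UMIs in L, a CPM 10.2 times higher in G with an interval of 3.5 to 49.7 for counting error (fitted log2 fold change -2.46, adjusted p = 0.0131, with 0.0519 without L_1 and 0.172 without G_2).

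The sodium-coupled carrier Slc38a2 did not pass the test, with 127 and 127 CPM in G and 76.2 and 51.0 CPM in L, or 140 and 135 CPM against 137 and 87.4 CPM without milk protein genes (-0.12, SE 0.20, adjusted p = 0.724). Basal markers were also higher in the L sums, at 2199 and 956 CPM against 119 and 115 CPM, and their part in these results was not tested.

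**Figure D5:**
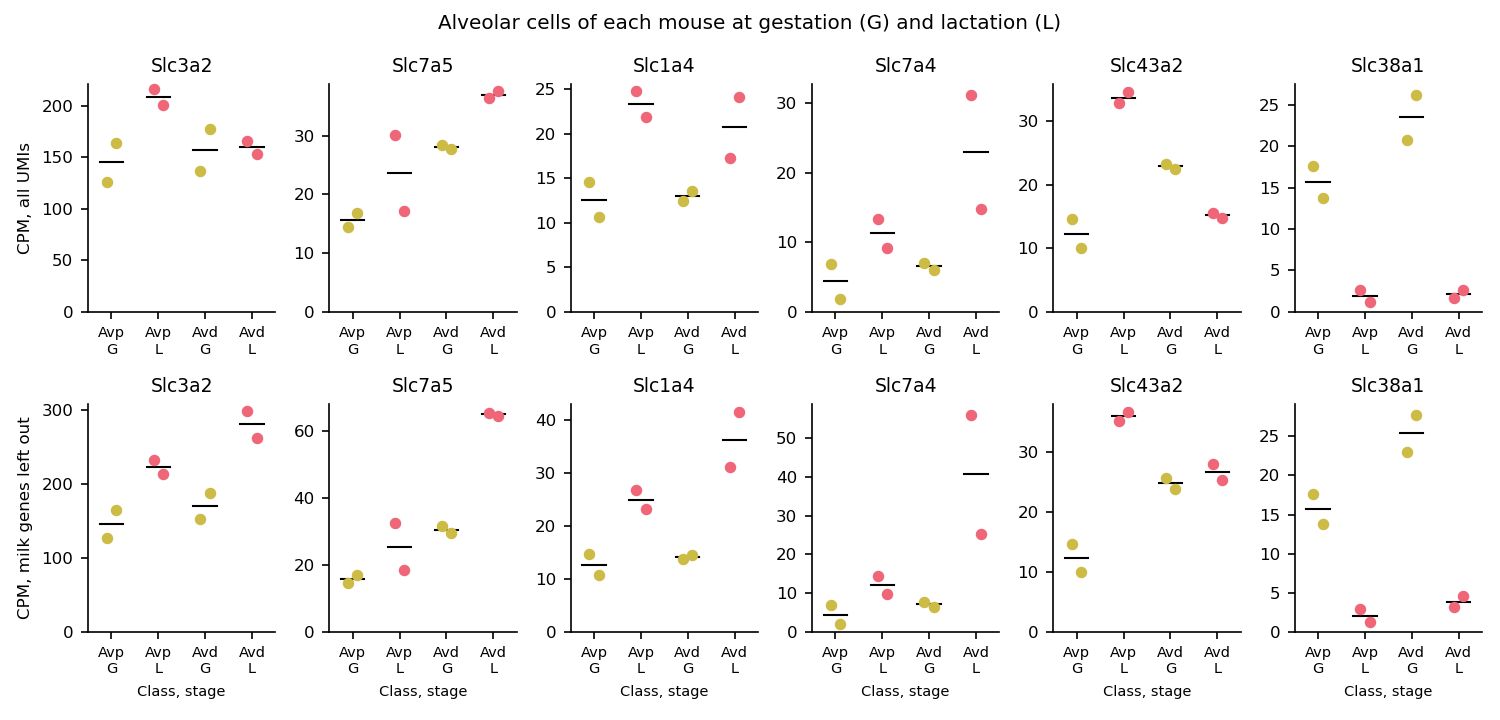
Level of 6 transporter genes in alveolar progenitors (Avp) and differentiated alveolar cells (Avd) of each G and L mouse (points), with the mean of the 2 mice as a line, in CPM of all UMIs (top) and of UMIs without milk protein genes (bottom). In Avd the mice of G and L overlap for Slc3a2 at the top (137 to 177 CPM) and not at the bottom, while Slc7a5 is higher and Slc38a1 lower in L on both scales.

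In alveolar progenitors, where milk protein genes took 7.21% and 5.92% of UMIs in C11, 5 of 12 transporter genes tested were called from G to L (4 higher, 1 lower), against 28% of 8446 genes (15.7% higher, 12.3% lower). Slc43a2 rose from 14.5 and 9.98 CPM to 32.8 and 34.5 CPM (log2 fold change 1.75, SE 0.30, adjusted p = 0.00261), and this call held in every alternative. Slc3a2 rose from 126 and 164 CPM to 216 and 201 CPM (0.81, adjusted p = 0.00762, 0.0964 without G_1), Slc1a4 from 14.5 and 10.6 CPM to 24.8 and 21.9 CPM (1.20, adjusted p = 0.0214) and Slc7a4 from 9 and 3 UMIs to 15 and 8 UMIs (1.73, adjusted p = 0.0437). Slc38a1 fell from 23 and 22 UMIs to 3 and 1 UMIs, a CPM 7.72 times higher in G (interval 2.82 to 29.6). The calls of Slc1a4 (0.0694 and 0.131) and Slc7a4 (0.266 and 0.34) were lost without L_1 or G_2, with a fold change of Slc7a4 of 2.80 without G_1 and 0.99 without G_2, and that of Slc38a1 without G_1. Basal markers summed to 5084 and 3762 CPM in these L sums against 135 and 212 CPM in G, with 0 of 5 at 0 in any of the 4 mice, and in C14 of the same L mice Slc3a2 was at 453 and 525 CPM and Slc43a2 at 5.92 and 6.38 CPM. The part of basal transcripts in these results was not tested.

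Of the amino acid response list, 8 of 19 genes were higher and 0 lower in alveolar progenitors, where 15.7% of all genes were called higher and 12.3% lower. In differentiated alveolar cells 6 of 21 were higher and 1 lower, where the shares of all genes were 9.54% and 9.17%. Trib3 (3.07), Cebpb (2.22), Ddit4 (2.09) and Gpt2 (1.91) led in progenitors, and Nupr1 (3.06), Ddit4 (2.21), Trib3 (1.85) and Cebpb (1.48) in differentiated cells. Of the tRNA synthetases, 1 rose and 1 fell in progenitors, and 0 rose and 2 fell in differentiated cells, where Kars (-0.92) and Eprs (-0.88) were lower. Genes induced by dissociation were higher in L in both classes (14 of 16 and 13 of 16, against the same shares of all genes), and their part was not tested. Among transporters outside these families, the taurine carrier Slc6a6 (1.28) and the lysosomal cystine carrier Ctns (1.58) rose in alveolar progenitors, and in differentiated cells the smallest adjusted p of the 11 tested was that of Slc6a14 (0.0515, unadjusted 0.00974), which had not passed.

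The change from G to L was compared directly between differentiated alveolar and basal cells in a fit with the mouse as a term. The difference was called for 2 of 22 transporter genes, against 19.3% of 11664 genes (9.91% toward alveolar cells, 9.41% toward basal cells). Both changed further upward in alveolar cells, Slc7a5 by 2.65 (SE 0.32, adjusted p = 1.1e-06) and Slc7a4 by 2.99 (SE 0.96, adjusted p = 0.0293, with 0.369 without G_1, 0.108 without G_2 and 0.152 without L_1). Slc7a5 thus rose in the milk-making cells and fell in the basal cells of the same mice. The fall of Slc38a1 did not differ between the 2 classes beyond the error (-0.06, SE 1.08, adjusted p = 0.978), nor did the rise of Slc3a2 (0.27, SE 0.20, adjusted p = 0.363), where a p that misses the threshold does not show that the changes were alike.

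In hormone-sensing cells of gestation (C5), whose sums held only 123242 and 258370 UMIs, 4 of 18 transporter genes tested were called against NP (2 higher, 2 lower), against 18.6% of 10978 genes (8.03% higher, 10.6% lower). Slc7a2, the leading transporter of this class in NP, fell from 223 and 184 CPM in NP to 24.3 and 69.7 CPM in G (log2 fold change -2.14, SE 0.30, adjusted p = 3.79e-11). This call held in every alternative, with a fold change of -3.33 without G_2. Slc7a7 rose from 4.86 and 3.09 CPM to 32.5 and 23.2 CPM on 4 and 6 UMIs (2.50, SE 0.67, adjusted p = 0.00197, 0.0533 without G_2). Slc7a6 (4 and 4 UMIs in G, adjusted p = 0.049) and Slc7a1 (0 and 6 UMIs in G, adjusted p = 0.05) stood at the threshold, and most alternatives lost them. The median log2 fold change of all genes was -0.20 in this comparison. The summed alveolar markers were at 1225 and 643 CPM in the G sums against 14.1 and 11.0 CPM in NP, and their part in the result was not tested.

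Of the transporters outside the 6 families, the glycine carrier Slc6a9 was lower in PI luminal progenitors (-2.66) and in G basal cells (-2.63), and the taurine carrier Slc6a6 was higher in PI luminal progenitors (1.75). Slc25a12, the aspartate and glutamate carrier of the mitochondrion, was higher in differentiated hormone-sensing cells of PI (1.05) and of G (1.61). Of this list 4 of 10 tested were called in luminal progenitors, where 26.9% of all genes were called, and 6 of 11 in basal cells from NP to G, where 46.1% were.

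Some transporter genes share exon sequence positions with a gene on the opposite strand, among them Slc7a7 with Oxa1l, Slc7a4 with P2rx6, Slc1a1 with 4430402I18Rik and Slc3a1 with Prepl. The study names Cell Ranger for the counting of UMIs, and whether strand was used is not stated there. Only if strand was not used could reads of such pairs not be told apart. Slc7a6os, with 4620 UMIs, has no exon in common with Slc7a6 and fell in basal cells from NP to G (log2 fold change -0.50, adjusted p = 0.021) and from G to L (-0.92, adjusted p = 0.00189). The level of Csn2, the beta-casein gene, was at most 2.04% of that in the differentiated alveolar cells of the same mouse in basal cells of G and L, and 26% and 24.9% in alveolar progenitors of L_1 and L_2. The part of free milk RNA in the results was not tested.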

How the data were processed

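Single-cell suspensions of 8 mice were sequenced with a droplet-based 3′ method. The values in the deposited files are UMI counts of each gene in each barcode, which the authors made from reads aligned to mm10 (STAR and mm10 are named in the submitters' processing notes), without normalization. The deposited annotation gives library, quality flags and cluster, and 1 annotated cell had no barcode. Cells passing all flags were summed per mouse and cluster (at least 20 cells) and class. The cluster that the annotation marks as doublets (C20, 103 and 205 cells in G_1 and G_2 and 1 each in L_2 and PI_2) was left out, and no doublet caller was run here.

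Sums were compared with edgeR 4.0.16 (R 4.3.3, TMM, filterByExpr with minimum count 10 and minimum total 15, quasi-likelihood F-test, adjusted p threshold 0.05, SE from the fold change and F). DESeq2 1.42.0, other normalizations, filters and cell choices, a replicate block and each mouse left out were alternatives. The fit was checked beforehand on simulated data. Python 3.11.15, pandas 2.3.3, scipy 1.17.1 and matplotlib 3.10.9 were used. Positions are GENCODE GRCm38, and promoters are from RefSeq. Intervals are exact at 95% for counting error only.

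Genes given per mouse were members past the test in at least 1 of 9 comparisons between stages or at a mean of 50 CPM in a cluster. From each further list at most 4 called genes with the largest change were named. Members and lists were chosen with earlier results of these data known.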

Additional observations from a re-analysis of the deposited data

Results flagged for a closer look

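The results listed here are those in which the change between stages differed between 2 cell classes by a test of the difference itself (edgeR, with the mouse as a term, adjusted over all genes). Groups of 2 mice are too small for a search for single samples that stand apart.

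Between luminal progenitors and differentiated hormone-sensing cells, the change from NP to PI differed for 10 transporter genes. The difference, as the log2 change in luminal progenitors minus that in differentiated hormone-sensing cells, was -4.70 for Slc38a1 and -0.67 for Slc7a2. It was 2.03 for Slc7a6, 1.95 for Slc7a11, 1.38 for Slc7a4, 1.36 for Slc1a4 and 1.24 for Slc7a5. It was 0.91 for Slc38a2, 0.76 for Slc3a2 and 0.62 for Slc7a1. The differences of Slc38a1, Slc7a11, Slc1a4, Slc7a5, Slc38a2 and Slc3a2 passed the test in every alternative in which they were tested.

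Between differentiated alveolar cells and basal cells, the change from G to L differed for Slc7a5, by 2.65 in favour of alveolar cells, and for Slc7a4, by 2.99. The first passed the test in every alternative in which it was tested, and the second did not pass without G_1, without G_2 or without L_1.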

How the results depend on the processing

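Of 78 calls of transporter genes, 37 passed the test in every alternative in which they were tested and 38 with each mouse left out in turn, and of 915 values under alternatives 786 kept their side of the threshold, 129 no longer passed and 0 changed direction. The count of called transporter genes moved by over 1.5 times in these cases, and the cause was not tested unless the alternative itself tests fewer genes. With DESeq2 it was 5 in luminal progenitors, 3 in hormone-sensing progenitors, 1 in PI basal cells and 2 in alveolar progenitors. With genes at a mean of at least 0.1 UMI per cell, which tests fewer genes, it was 3 in luminal progenitors, 3 in differentiated hormone-sensing cells of PI, 1 in those of G, 5 in basal cells from G to L and 1 in the difference between alveolar and basal cells. With no filter it was 0 in PI basal cells (edgeR, Slc7a5 and Slc3a2 at unadjusted p = 0.00625 and 0.0126), 2 in hormone-sensing cells of G and 9 in alveolar progenitors. In hormone-sensing cells of G it was 2 without the 10% of cells with most UMIs, 2 with the replicate block and 2 with all stages in 1 fit, and in PI basal cells 1 with all stages in 1 fit. With each mouse left out in turn the count ranged from 5 to 7 in luminal progenitors, 2 to 6 in hormone-sensing progenitors, 4 to 11 in differentiated hormone-sensing cells of PI, 0 to 3 in PI basal cells, 1 to 2 in hormone-sensing cells of G, 8 to 11 in basal cells from NP to G, 9 to 16 in basal cells from G to L, 3 to 7 in alveolar progenitors, 4 to 5 in differentiated alveolar cells, 6 to 9 for the difference in parity change and 1 to 2 for that in lactation change. With totals without milk protein genes 3 of 33 genes had another highest cluster, and with UMIs per cell 22 of 33. Samples of the same number did not deviate together (correlations from -0.036 to 0.118 over 9 comparisons), so the numbers do not pair the mice and the replicate block stands only here. The sums of 20 to 59 cells limit what could be detected in C5, C9 and PI basal cells.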

Other observations

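Sorted cells that the annotation places outside the epithelium also carried transporter transcripts. In the cluster C17, whose cells hold immune markers, Slc7a11 was at 447 and 494 CPM in G_1 and G_2 and 121 and 289 CPM in L_1 and L_2, and Slc7a7 at 77.5 and 76.5 CPM and at 30.3 and 29.1 CPM. Slc38a1 was at 68.6 and 97.0 CPM in G and 42.0 and 69.3 CPM in L. In the cluster C18, whose cells hold fibroblast markers, Slc43a3 was at 191 and 199 CPM in L and at 54.3 and 6.65 CPM in G, the latter from 38 and 31 cells, and Slc1a5 at 109 and 173 CPM in L.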
